A study of Mus musculus with 8 samples.

Results

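Complement genes were followed through their H3K27ac, the acetylation of lysine 27 on histone 3 that marks active promoters and enhancers, in microglial nuclei sorted from the brains of mice that had (WT) or lacked (GrnKO) Grn, the gene of progranulin. The genes were C1qa, C1qb, C1qc, C3, C3ar1, C5ar1, C4b, Itgam and Itgb2, and a region belonged to a gene when the deposited table named that gene for it. This gave 73 of the 129304 regions of the table, each 800 bp wide, for 9 of its 18707 genes. C1qb had 14 regions, Itgam 13, Itgb2 12, C3ar1 9, C1qa and C5ar1 7 each, C1qc 5, C3 4 and C4b 2. Neighbouring regions can overlap (9 pairs at C1qb), and a set without overlap kept 56 of the 73. Counts of regions are therefore not counts of separate stretches, and gene sums count shared tags more than once. A region within 1000 bp of the annotated start site was counted as promoter (14 regions) and any other as distal (59 regions).

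All mice were C57BL/6, 2 years old and perfused with saline, and carried either the WT or the GrnKO genotype with no further treatment. Nuclei came from a frozen hemibrain and were sorted as PU.1 positive and negative for OLIG2 and NEUN, so that a nucleus of any PU.1-expressing cell could pass the gate. For each genotype there were 2 replicates, each combining the sorted nuclei of 2 animals, and a replicate gave 1 H3K27ac library and 1 input library of sheared chromatin without antibody. The labels give GrnKO as the genotype of the mouse and name no Cre driver, so the loss of Grn is not stated to be limited to microglia.

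Complement is a cascade of proteins that tags cells, debris and synapses for removal. C1q, built from the products of C1qa, C1qb and C1qc, binds the target and starts the classical pathway, C4 and C3 are then cleaved and coat it, and the small fragments released on the way act on the receptors C3aR (C3ar1) and C5aR1 (C5ar1). Coated targets are taken up through complement receptor 3, a pair of integrin chains encoded by Itgam (CD11b) and Itgb2 (CD18), and microglia are the main source of C1q in the brain.

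The promoters at both ends of the range of H3K27ac and the promoter whose H3K27ac fell in GrnKO are printed here, since the results below start from them. The 250 bases before the start site are given 5′ to 3′ on the gene's strand, from RefSeq on GRCm38.p6, and capitals mark matches on either strand to the letters GAGGAA or GGAAGT (PU.1), TGANTCA (AP-1) or TTGNGNAA (C/EBP). C1qb and C1qc held the regions with the most H3K27ac, Itgam had the promoter region that fell, C3ar1 had a distal region that rose, and C3 had the least of the genes with a promoter region.
C1qb promoter, chr4:136886201-136886450, minus strand: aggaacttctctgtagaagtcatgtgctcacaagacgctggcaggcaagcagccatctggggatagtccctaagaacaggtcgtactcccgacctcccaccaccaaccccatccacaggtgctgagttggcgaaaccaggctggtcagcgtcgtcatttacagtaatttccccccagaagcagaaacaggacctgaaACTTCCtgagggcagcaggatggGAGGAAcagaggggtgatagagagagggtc
C1qc promoter, chr4:136892915-136893164, minus strand: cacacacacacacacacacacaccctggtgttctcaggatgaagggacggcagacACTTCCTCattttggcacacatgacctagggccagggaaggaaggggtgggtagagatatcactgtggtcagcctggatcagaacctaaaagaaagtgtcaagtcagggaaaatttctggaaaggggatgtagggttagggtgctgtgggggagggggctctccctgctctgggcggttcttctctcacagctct
Itgam promoter, chr7:128062390-128062639, plus strand: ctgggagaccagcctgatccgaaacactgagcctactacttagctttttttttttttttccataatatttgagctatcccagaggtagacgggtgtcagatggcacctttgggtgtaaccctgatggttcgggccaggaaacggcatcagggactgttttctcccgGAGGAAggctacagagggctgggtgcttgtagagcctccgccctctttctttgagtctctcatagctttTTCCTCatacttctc
C3ar1 promoter, chr6:122856158-122856407, minus strand: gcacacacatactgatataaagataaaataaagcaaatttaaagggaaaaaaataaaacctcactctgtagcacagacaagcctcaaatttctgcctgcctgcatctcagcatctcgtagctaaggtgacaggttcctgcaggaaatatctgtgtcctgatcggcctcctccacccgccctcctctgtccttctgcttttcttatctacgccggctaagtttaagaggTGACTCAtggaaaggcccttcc
C3 promoter, chr17:57228137-57228386, minus strand: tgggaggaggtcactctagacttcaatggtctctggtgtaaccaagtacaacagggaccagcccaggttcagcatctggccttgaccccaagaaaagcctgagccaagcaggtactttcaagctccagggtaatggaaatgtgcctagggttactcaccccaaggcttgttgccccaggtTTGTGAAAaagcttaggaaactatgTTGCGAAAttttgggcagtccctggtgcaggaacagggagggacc

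In windows of 300 bases, from 250 before the start to 50 after it, the first set of PU.1 letters stood in 28.3% and the second in 23.8% of 32851 RefSeq promoters. Of the 6 complement promoters in the RefSeq table (C1qa, C4b and Itgb2 had no entry), 3 held the first (C1qb, C1qc and Itgam) and 3 the second (C1qb, C1qc and C5ar1). In C1qc both were read from 1 overlapping stretch that begins 195 bases before the start. The C3ar1 promoter was the 1 with the AP-1 letters, found in 7.81% of all promoters, 22 bases before its start. TTGNGNAA stood in 13.3% of all promoters and in 3 of the 6, with C3 holding it at 70 and at 45 bases before the start, C5ar1 at 157 bases before it, and Itgam at 32 bases past it, where it overlaps the first PU.1 letters. The interferon response letters GAANNGAAA, the E-box letters CACGTG and the STAT letters TTCNNNGAA, found in 7.52%, 7.15% and 8.30% of all promoters, were in 0 of the 6. These matches describe letters only, and binding was not measured. The start sites in the deposited table were those of RefSeq for C1qc, C3, C3ar1, C5ar1 and Itgam, and the C1qb start lay 23 bp downstream of the RefSeq one.

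The H3K27ac libraries held between 15491642.5 and 20030832 tags (a tag is 2 aligned read ends), and the inputs between 4078179 and 14415969. WT replicate 1 stood apart, with 49.4% of its tags in the regions against 63.3% to 65.7% in the other 3 libraries. Values below are therefore given as scaled tags, that is tags per 10000000 corrected by TMM (a scaling that takes most regions as unchanged between libraries), unless the authors' own tags per 10000000 are named. Of 3 Grn promoter regions, the strongest (631 bp upstream of the start) had 585 and 573 of the authors' tags in WT and 7.34 and 6.49 in GrnKO. Those at the start and 886 bp downstream had 294 and 311 and 205 and 193 in WT and 0 in both GrnKO libraries, where 3 tags would have been worth 1.84 and 1.5. Y-linked promoter regions summed to 5.81 and 0 of the authors' tags in WT and GrnKO replicate 1 and to 269.62 and 220.16 in replicate 2, so that same-numbered libraries of both genotypes shared this trait. In tested complement regions the median enrichment over input (value + 1 over input + 1) was 34.9 to 154 by library, against 14.8 to 28.2 for all tested regions. Regions of 8 microglial genes averaged 178 to 245 of the authors' tags, against 50.9 to 62.5 for astrocyte, 35.5 to 62.2 for oligodendrocyte and 22.8 to 82.4 for lymphocyte genes. The averages were 15.7 to 31.2 for genes of border macrophages, 14.4 to 30.6 for endothelial, 16.5 to 24.4 for monocyte and neutrophil and 7.23 to 12 for neuronal genes, whose promoter regions at Map2, Slc17a7 and Tubb3 were at or under 3 tags. The oligodendrocyte, endothelial, border macrophage and lymphocyte averages over all regions were higher in both GrnKO libraries than in both WT libraries. Border macrophage genes had 31.2 and 27.1 against 15.7 and 19.4, and lymphocyte genes 82.4 and 62.6 against 22.8 and 26.3. Promoter averages (WT replicates, then GrnKO replicates) were also higher for endothelial (3.44, 10.85, 51.9, 52.0) and border macrophage genes (29.0, 40.9, 56.9, 44.6). They overlapped for oligodendrocyte genes (13.8, 11.4, 14.7, 12.8). The 1 lymphocyte gene with a promoter region had little there, and less in GrnKO (2.26, 0.81, 0.61, 0). The part of these lists in the results below was not tested.

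For the 9 genes, single regions at C3ar1, Itgam and Itgb2 differed in H3K27ac between the genotypes. Of 64 regions with enough tags to test (14 promoter, 50 distal), limma called 2 higher and 2 lower in GrnKO at an adjusted p under 0.05. That is 6.25% of those tested, where 6.8% of all 80728 tested regions were called higher, 2.92% lower and 9.71% in either direction, and the difference between these shares was not tested. An unadjusted p under 0.05 was reached by 16 of the 64 (25%), of which 6 were higher and 10 lower, and by 23.9% of all regions. The regions that rose lay 7834 bp upstream of C3ar1 and inside Itgb2, and those that fell lay at the Itgam start and 6288 bp upstream of it. The other 9 regions of these genes had too few tags and were not tested.

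**Figure D1:**
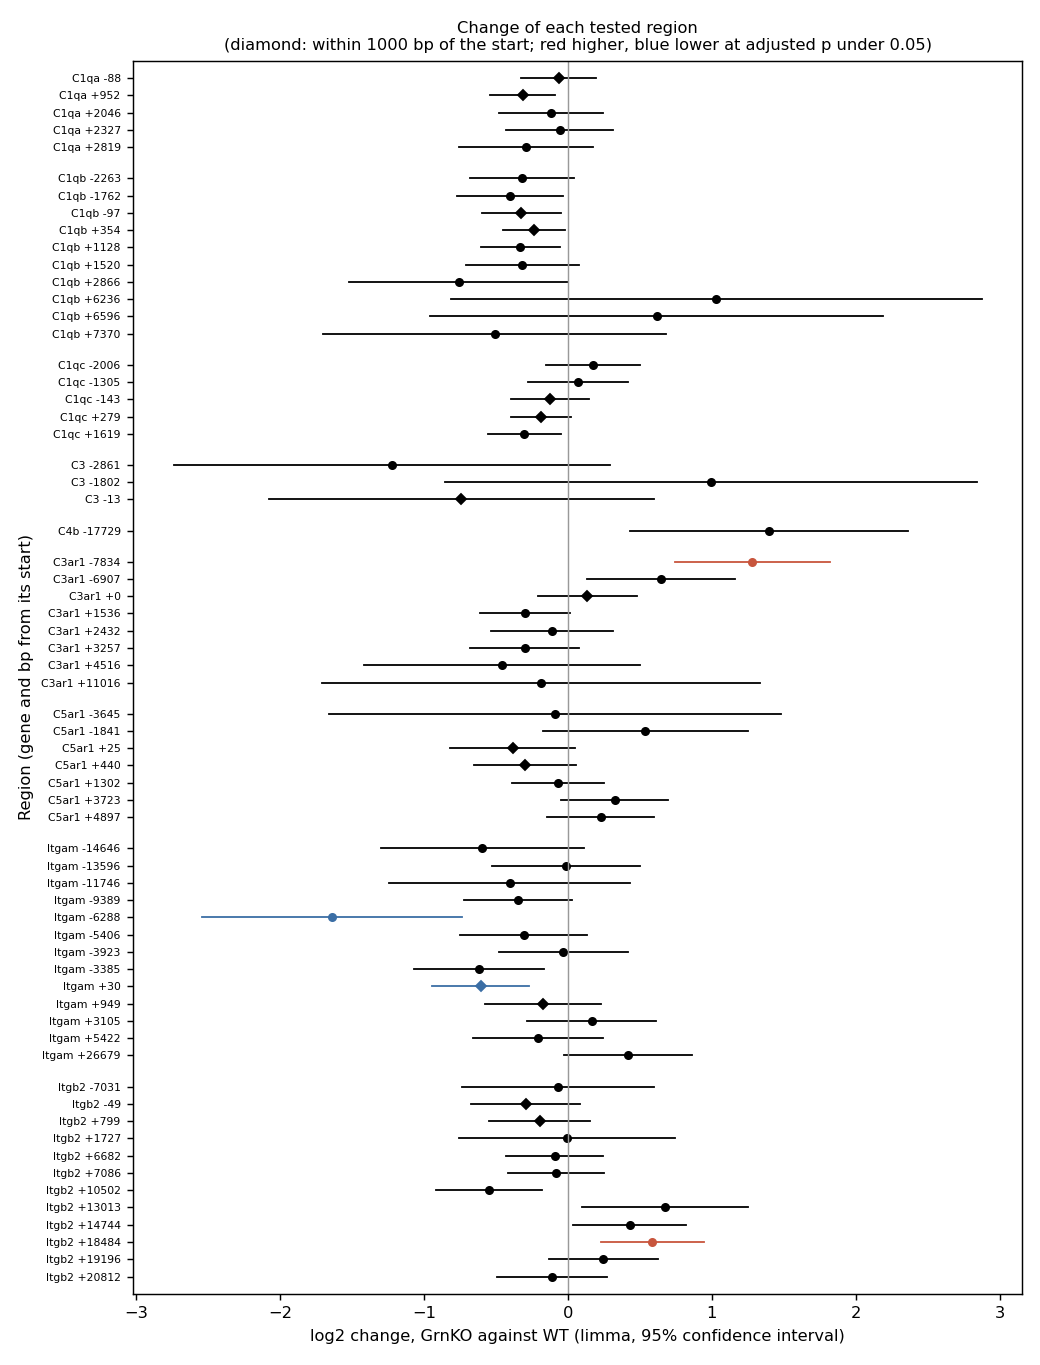
Each point is the log2 change of H3K27ac (GrnKO against WT, TMM scaling, limma) in 1 of the 64 tested regions, named by its gene and its distance in bp from the start, with its 95% confidence interval (diamonds, promoter; circles, distal; red, higher and blue, lower at an adjusted p under 0.05). The 4 called regions belong to C3ar1, Itgam and Itgb2, and 13 of the 14 promoter points lie below 0, against 8 of 14 under the authors' scaling.

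Promoter regions had a median log2 change of -0.26, with 13 of 14 below 0, and distal regions one of -0.09. The medians over all tested promoter and distal regions were -0.0062 and 0.00056. Without TMM, under the authors' scaling to library totals alone, the median of all regions moved from -0.0020 to 0.22, and the complement promoter regions below 0 went from 13 to 8 of 14. Set against the median of all regions, 13 of 14 lay below it under both scalings, and so did 46 of the 64. A change of scaling shifts all regions nearly alike, so counts against that median could hardly differ between the scalings. Both GrnKO values were below both WT values in 24 of the 64 regions (37.5%, against 25.6% of all regions) and above in 13 (20.3%, against 27% of all regions).

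The C1q genes lie side by side on chromosome 4, on the minus strand, with start sites at 136898844 (C1qa), 136892914 (C1qc) and 136886177 (C1qb), and carried the strongest single regions and the highest promoter sums of the 9 genes. By mean over the H3K27ac libraries, Itgb2 summed higher than C1qa over all regions (1892 against 1781 scaled tags). Its distal sum (1537) was the highest of the 9 genes. Of the 1293 regions that make up the top percent of the table, 8 were C1q regions and none belonged to the other 6 of the 9 genes. The C1qb region 354 bp downstream of its start (chr4:136885423-136886223, intron 1 of 2) ranked 30 of 129304 by mean. It held 966 and 849 scaled tags in WT and 768 and 770 in GrnKO. At C1qc, the region at 279 bp (chr4:136892235-136893035, intron 1 of 2) held 869 and 880 in WT and 739 and 795 in GrnKO and ranked 37. In both, each GrnKO library was below each WT library, by less than the test could call (log2 change -0.24 with adjusted p = 0.166 and -0.19 with adjusted p = 0.263, limma). Under the authors' scaling the log2 changes were -0.0095 and 0.04. The C1qb value was -0.14 without WT replicate 1 and -0.33 without WT replicate 2, and the C1qc value -0.20 and -0.18.

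None of the 20 tested C1q regions passed the adjusted threshold in limma. An unadjusted p under 0.05 was reached by 6 of the 20, all lower in GrnKO under TMM, and by 23.9% of all tested regions. C1qb held 4 of the 6, and its neighbouring regions overlap. Nearest to the adjusted threshold was the region 952 bp downstream of the C1qa start (chr4:136897492-136898292, intron 1 of 2), the strongest of C1qa. Its values were 781 and 722 scaled tags in WT and 616 and 591 in GrnKO. The log2 change was -0.32 (SE 0.11) with an adjusted p = 0.0743 in limma, which became 0.0427 in DESeq2, 0.0127 without WT replicate 2 and 0.905 under the authors' scaling, the last the highest over its alternatives. The strongest distal regions were those of C1qc at 1619 bp (772, 611, 555 and 559, with both WT libraries first and then both GrnKO libraries), of C1qb at 1128 bp (550, 475, 377 and 438) and of C1qa at 2046 bp (328, 227, 252 and 250). The groups did not overlap at the C1qc and C1qb regions and overlapped at the C1qa region, where WT replicate 1 was the highest library.

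Over the 16 C1q regions above 100 scaled tags (means of 176 to 838), the log2 changes ran from -0.40 to 0.18. Of these 16, 14 were negative, a count that fell to 9 of 16 under the authors' scaling. Below the median of all regions lay 14 under both, a count that a change of scaling could hardly move. The 95% intervals of the 16 on the fold change (GrnKO over WT, on the scaled tags + 1) reached from 0.585 to 1.42. In 8 of the 20 tested regions both GrnKO libraries were below both WT libraries, and in 0 were they above, where 25.6% and 27% of all tested regions were so placed. Under the authors' scaling these counts turned to 3 below and 5 above, against 13.3% and 35.8% of all tested regions. The intergenic stretch between C1qa and C1qc went the other way in value, with log2 changes of 0.18 at the region 2006 bp upstream of C1qc, which holds the end of C1qa, and 0.07 at the one 1305 bp upstream, and the groups overlapped at both. The other 4 tested regions, all in or past C1qb, had 7.8 to 31.1 scaled tags on average, and 6 more at the edges of the cluster were not tested.

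**Figure D2:**
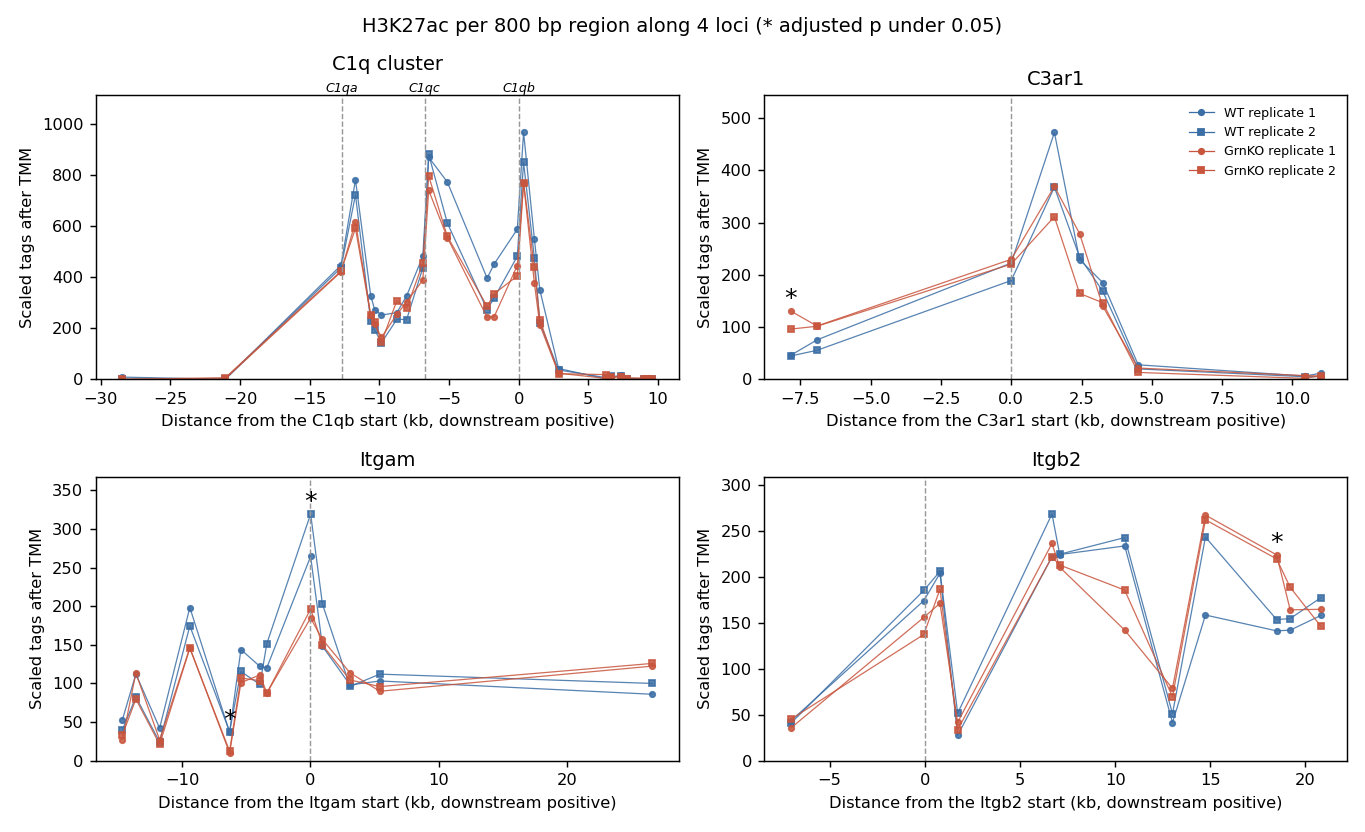
H3K27ac in scaled tags per 800 bp region (TMM scaling) against the distance of the region's centre from a start site in kb, for the C1q cluster, C3ar1, Itgam and Itgb2, with 1 line per library (blue, WT; red, GrnKO; circles, replicate 1; squares, replicate 2) and dashed lines at the start sites. Peaks of 677 to 838 scaled tags on average sit just downstream of each C1q start, and stars mark the 4 regions with an adjusted p under 0.05.

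C3 and C4b, whose products coat the target after C1q has bound, had little H3K27ac. The C3 promoter region (chr17:57227749-57228549) held 21.1 and 8.38 scaled tags in WT and 6.79 and 8.54 in GrnKO. WT replicate 1 alone was high, the groups overlapped, and the mean of 11.2 was close to the median of 11.0 over all regions of the table. The log2 change of -0.74 (SE 0.64) had an adjusted p = 0.530 in limma. It was -0.12 without WT replicate 1 and 0.32 after subtraction of the input, called in neither. The strongest distal C3 region, 2861 bp upstream, held 16.4, 8.38, 5.37 and 3.69.

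C4b had no promoter region in the table, and 1 of its regions lies 30687 bp downstream of its start in intron 18 of 32 of the neighbouring gene Tnxb, with too few tags to test. The other, intergenic and 17729 bp upstream (chr17:34761226-34762026), held 14.9 and 9.69 scaled tags in WT and 43.3 and 25.6 in GrnKO. Both GrnKO libraries were above both WT libraries. The log2 change of 1.40 (SE 0.46) missed the threshold, with an adjusted p = 0.0634 in limma that ran from 0.00518 without WT replicate 1 to 0.656 without GrnKO replicate 1 over its alternatives, and under the authors' scaling it was called (1.61, adjusted p = 0.0276). The input of GrnKO replicate 1 had 12.1 of the authors' tags there and the other 3 inputs 0. C4b has a near-identical copy, C4a, on the same chromosome, and how the authors placed reads that match both is not given in the sources used here.

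The receptor for C3a had 1 region that rose. The intergenic region 7834 bp upstream of C3ar1 (chr6:122863591-122864391) held 46.1 and 44.8 scaled tags in WT and 130 and 96.2 in GrnKO, so that both GrnKO libraries were above both WT libraries. The log2 change was 1.28 (SE 0.26, n = 2 per genotype), a fold of 2.43 with a 95% interval of 1.67 to 3.54, and the adjusted p was 0.00353 in limma. The call was lost without GrnKO replicate 1 (1.06, adjusted p = 0.216, the highest over its alternatives) and after subtraction of the input (1.29, adjusted p = 0.101), although no input exceeded 2.08 of the authors' tags in that region. The region next to it, 6907 bp upstream, held 75.5 and 55.5 in WT and 102 and 101 in GrnKO, and its log2 change of 0.65 had an adjusted p = 0.109.

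At the C3ar1 start and in its intron no region was called. The promoter region (chr6:122855757-122856557) held 223 and 189 scaled tags in WT and 230 and 221 in GrnKO, and the strongest region, in intron 1 of 1 at 1536 bp, held 472, 368, 369 and 311. The groups overlapped at both, with log2 changes of 0.13 and -0.30. The value at 1536 bp rested on which WT library was kept (-0.12 without WT replicate 1, -0.48 without WT replicate 2). Under the authors' scaling it was -0.07. Relative to the other regions of C3ar1, the region 7834 bp upstream was higher by 1.37 on the log2 scale (adjusted p = 0.0383, limma's diffSplice, a test chosen after the values were seen). In that test 2 of 63 complement regions were called, against 2.45% of 77519 regions of all genes.

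C5ar1, the receptor for C5a, had 7 tested regions and none was called. The strongest promoter region, 440 bp downstream of the start (chr7:16258498-16259298, intron 1 of 1), held 212 and 197 scaled tags in WT and 161 and 171 in GrnKO. The region at 3723 bp in the same intron held 150, 148, 180 and 194. Under TMM the groups did not overlap in either, with GrnKO below at the start and above in the intron. The log2 changes of -0.30 and 0.32 had adjusted p = 0.304 and 0.278 in limma. With the authors' scaling the groups overlapped at 440 bp (WT 174.9 and 204.0, GrnKO 174.0 and 185.0), and the log2 change was -0.07. At 3723 bp GrnKO stayed above (WT 123.9 and 153.5, GrnKO 194.8 and 210.2). The strongest region of all, at 1302 bp, held 250, 251, 244 and 234, with each GrnKO library just below each WT library under TMM. Under the authors' scaling its log2 change was 0.16. Both GrnKO libraries were below both WT libraries in 3 of the 7 regions under TMM and in 0 under the authors' scaling (25.6% and 13.3% of all tested regions). They were above in 3 under both (27% and 35.8% of all).

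Itgam, the CD11b chain of complement receptor 3, had both regions that fell. Its promoter region (chr7:128062270-128063070, centred 30 bp downstream of the start) held 264 and 319 scaled tags in WT and 185 and 196 in GrnKO, with both GrnKO libraries below both WT libraries. The log2 change was -0.61 (SE 0.16), a fold of 0.657 with an interval of 0.519 to 0.830, and the adjusted p was 0.0222 in limma. Under the authors' scaling the log2 change was -0.38 and the adjusted p 0.471, the highest over its alternatives, and the call was also lost without GrnKO replicate 1 (-0.56), without GrnKO replicate 2 (-0.65) and after subtraction of the input (-0.64). A second promoter region at 949 bp (intron 1 of 29) held 148, 203, 157 and 150, and the groups overlapped.

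The intergenic region 6288 bp upstream of Itgam (chr7:128055952-128056752) held 36.8 and 37.7 scaled tags in WT and 10.2 and 12.5 in GrnKO. This was the largest fall among the 64 tested regions, with a log2 change of -1.64 (SE 0.43), a fold of 0.321 (0.171 to 0.60) and an adjusted p = 0.0210 in limma. The call was lost without GrnKO replicate 1 (-1.50), without GrnKO replicate 2 (-1.77) and after subtraction of the input (-2.08), with adjusted p-values up to 0.243, and the inputs held 0 to 7.49 of the authors' tags there. Relative to the other Itgam regions it was lower by 1.41 (log2 change -1.41, adjusted p = 0.000804, diffSplice). The strongest distal region, 9389 bp upstream, held 198, 174, 146 and 146 and was not called (adjusted p = 0.248). Of the 13 Itgam regions 11 had a negative log2 change, against 7 under the authors' scaling. Below the median of all regions lay 11 under both, a count that a change of scaling could hardly move. Both GrnKO libraries were below both WT libraries in 7 (25.6% of all tested regions) and above in 2 (27% of all), at 3105 and 26679 bp inside the gene, and under the authors' scaling they were below in 6 (13.3% of all) and above in 3 (35.8%).

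Itgb2, the CD18 chain that pairs with CD11b and with other CD11 chains, had values on both sides of 0. The region 18484 bp into the gene (chr10:77548432-77549232, intron 6 of 15) rose, with 141 and 153 scaled tags in WT and 224 and 219 in GrnKO. The groups did not overlap, and the log2 change was 0.59 (SE 0.17), a fold of 1.5 (1.17 to 1.93), with an adjusted p = 0.0369 in limma. Its adjusted p in limma was 0.0572 under the authors' scaling (log2 change 0.81), 0.0627 without the filter on low tags and 0.143 after subtraction of the input (0.58). The call was also lost without GrnKO replicate 1 (0.57) and without GrnKO replicate 2 (0.60). The region in intron 1 at 10502 bp held 233 and 243 in WT and 142 and 186 in GrnKO, lower in both GrnKO libraries under TMM, and its log2 change of -0.55 missed the threshold (adjusted p = 0.0575). Under the authors' scaling it held 193 and 251 in WT and 154 and 201 in GrnKO, and the groups overlapped. The strongest promoter region (799 bp, intron 1 of 15) held 204, 206, 171 and 186, and the strongest distal one (6682 bp, intron 1) 222, 268, 236 and 221. Their log2 changes were -0.20 and -0.09 under TMM and 0.03 and 0.13 under the authors' scaling. Both GrnKO libraries were below both WT libraries in 4 of the 12 Itgb2 regions under TMM (25.6% of all tested regions). Under the authors' scaling they were so in 0 (13.3% of all). They were above in 4 under both (27% and 35.8% of all).

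Summed over all its regions, no gene of the 9 was called in limma, in edgeR or in DESeq2, while 3 (C1qb, C4b and Itgam) had an unadjusted p under 0.05 in limma. Of all 15380 genes 14.5% were called and 27% had such an unadjusted p. C1qb summed to 3368 and 2693 scaled tags in WT and 2358 and 2530 in GrnKO (log2 change -0.30, SE 0.10, adjusted p = 0.0687). Summed over non-overlapping regions, its log2 change was -0.29 (adjusted p = 0.0848, limma). C1qa summed to 2087 and 1722 in WT and 1671 and 1642 in GrnKO (-0.19), and C1qc to 2710 and 2396 against 2240 and 2394 (-0.14). Both GrnKO sums were below both WT sums for each C1q gene under TMM, with WT replicate 1 the highest library. The size of these changes rested on which WT library was kept. C1qb was -0.14 (adjusted p = 0.282) without WT replicate 1 and -0.46 (adjusted p = 2.25e-06) without WT replicate 2, and its adjusted p reached 0.915 under the authors' scaling. C1qa was -0.06 (adjusted p = 0.765) and -0.33 (adjusted p = 0.00581), and C1qc -0.05 (adjusted p = 0.770) and -0.22 (adjusted p = 0.0507), in the same order. In the authors' own scaling the C1qa sums were 1723, 1784, 1807 and 1776 (WT, then GrnKO), the C1qc sums 2237, 2482, 2422 and 2590, and the C1qb sums 2780, 2790, 2550 and 2737. Their log2 changes were then 0.03, 0.09 and -0.08, against a median of 0.18 over all genes, which was -0.05 under TMM.

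Itgam summed to 1529 and 1555 in WT and 1292 and 1263 in GrnKO, a log2 change of -0.27 (SE 0.10, adjusted p = 0.0766). Its adjusted p ran from 0.0410 to 0.948 over the alternatives, the last under the authors' scaling. Its partner Itgb2 summed to 1769 and 1998 in WT and 1891 and 1908 in GrnKO, with a log2 change of 0.01 and a 95% interval on the fold of 0.878 to 1.16. The sums of C3ar1 and C5ar1 had log2 changes of -0.01 and -0.01 and fold intervals of 0.826 to 1.19 and 0.845 to 1.17. For C3 the sums were 41.8, 19.4, 18.4 and 21, with WT replicate 1 alone high, and for C4b 14.9, 12.6, 45 and 25.6 (log2 change 1.25, SE 0.48, adjusted p = 0.102).

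**Figure D3:**
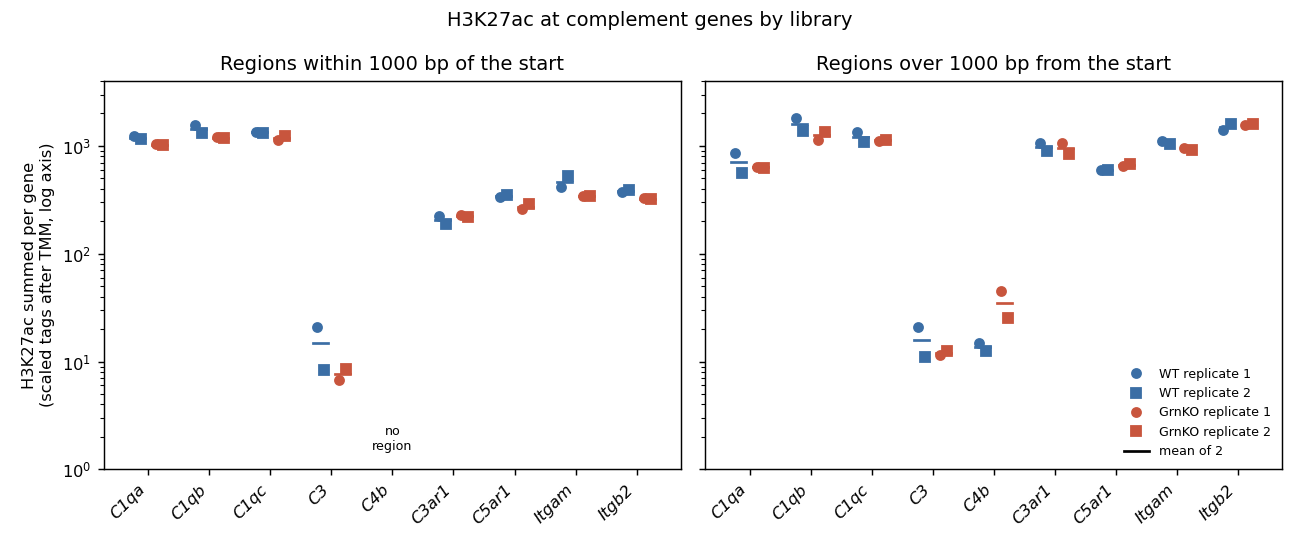
H3K27ac summed per gene in scaled tags (TMM scaling, log axis) over promoter regions on the left and distal regions on the right, with 1 point per library (blue, WT; red, GrnKO; circles, replicate 1; squares, replicate 2) and a bar at each mean of 2. The C1q genes lie highest at the promoter, C3 and C4b lie far below the other genes, and C4b has no promoter region.

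With promoter and distal regions apart, no sum was called for any of the 8 genes with a promoter region or for any of the 9 distal sums, where 5.23% of 11084 promoter sums and 18.1% of 11368 distal sums were called. An unadjusted p under 0.05 was reached by 4 promoter sums (C1qa, C1qb, C5ar1 and Itgam, all with negative changes) and by 2 distal sums (C1qb and C4b), against 18.2% and 31.2% of all such sums. Under the authors' scaling 0 promoter sums reached it, and the C1qa promoter sum had a log2 change of 0.0089. The Itgam promoter sum was 413 and 522 in WT and 342 and 346 in GrnKO (log2 change -0.43, SE 0.15, adjusted p = 0.124), and it was called without WT replicate 1 (-0.60, adjusted p = 0.00296, the lowest over its alternatives), while the highest adjusted p was 0.765, under the authors' scaling (-0.21). Without WT replicate 2 it was -0.26 (adjusted p = 0.299). Promoter and distal change were set against each other within each library by the ratio of the distal to the promoter sum. C5ar1 had the largest difference, with ratios of 1.75 and 1.69 in WT and 2.49 and 2.34 in GrnKO, and its log2 change of 0.49 had an adjusted p = 0.392. No ratio of the 8 was called and none had an unadjusted p under 0.05, while 0.0273% of 7324 genes were called, so that few ratios of any gene pass this test with 2 libraries per genotype.

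Because nuclei were pooled and sorted, fewer nuclei with acetylation at a region and less acetylation per nucleus cannot be told apart. The marker lists moved with genotype as follows, in sums of the authors' tags over all regions of a list. Border macrophage genes (Mrc1, Cd163 and others, 6 of 6 in the table) had 816 and 1008 in WT and 1623 and 1407 in GrnKO, and lymphocyte genes (3 of 6 in the table) 183 and 211 against 659 and 501. Endothelial genes (3 of 5) had 664 and 918 against 1305 and 1406, and oligodendrocyte genes (5 of 6) 1634 and 2065 against 2701 and 2859. Astrocyte genes (6 of 6) had 2899 and 3563 against 3476 and 3535, neuronal genes (6 of 6) 222 and 300 against 205 and 181, monocyte and neutrophil genes (6 of 8) 514 and 634 against 531 and 428, and microglial genes (8 of 8) 41049 and 56444 against 44607 and 47111. In TMM-scaled tags, the scale of the changes given above, the microglial list had 49738 and 54483 in WT and 41265 and 43540 in GrnKO, lower in both GrnKO libraries (log2 ratio of the means -0.30). The astrocyte (-0.10), monocyte and neutrophil (-0.48) and neuronal (-0.65) lists were then also lower in both, and the oligodendrocyte (0.37), border macrophage (0.51), endothelial (0.57) and lymphocyte (1.34) lists stayed higher in both. Their part in the changes at the C1q genes, C3ar1, Itgam and Itgb2, and in those of other complement genes given next, was not tested.

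Beyond these 9 genes, 34 of 48 other genes of the complement system were in the table and 25 could be tested, of which 4 rose and 2 fell in their sums. These are 6 of 25, where 14.5% of all gene sums were called, and the counts by role below are too small to set against that share. The 25 had a median log2 change of -0.11 against -0.05 for all genes. The rise was largest for Colec12, a scavenger receptor with a collectin-like domain (54.0 and 55.3 in WT, 200 and 149 in GrnKO; log2 change 1.64, adjusted p = 0.000669, limma). Cd93, first described as a receptor for C1q, had 515 and 449 in WT and 912 and 957 in GrnKO (0.96, adjusted p = 0.000231). Lrp1, an endocytic receptor that acts with calreticulin on C1q-coated targets, had 6109 and 6472 against 7416 and 7938 (0.29, adjusted p = 0.0120), and Csmd2 rose just inside the threshold (0.88, adjusted p = 0.04997). In all 4 both GrnKO libraries were above both WT libraries. These sums were tested under TMM alone.

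Of the genes that fell, C1ra encodes the protease that C1q activates first, and its sums of 935 and 1014 in WT compared with 630 and 635 in GrnKO (log2 change -0.62, adjusted p = 0.00262, limma). Csmd3, a membrane protein with complement control domains, had 2322 and 2471 against 1616 and 1713 (-0.53, adjusted p = 0.00154). By role, the 8 tested genes of classical and lectin initiation held 1 that rose and 1 that fell, the 6 membrane regulators likewise, and the 6 receptors 2 that rose. Of the alternative pathway (Cfp) and the terminal pathway (C6, C8g and C9) no tested gene was called. Itgax, the CD11c chain that also pairs with Itgb2, had 632 and 652 in WT and 767 and 755 in GrnKO, and its log2 change of 0.25 had an adjusted p = 0.200.

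**Figure D4:**
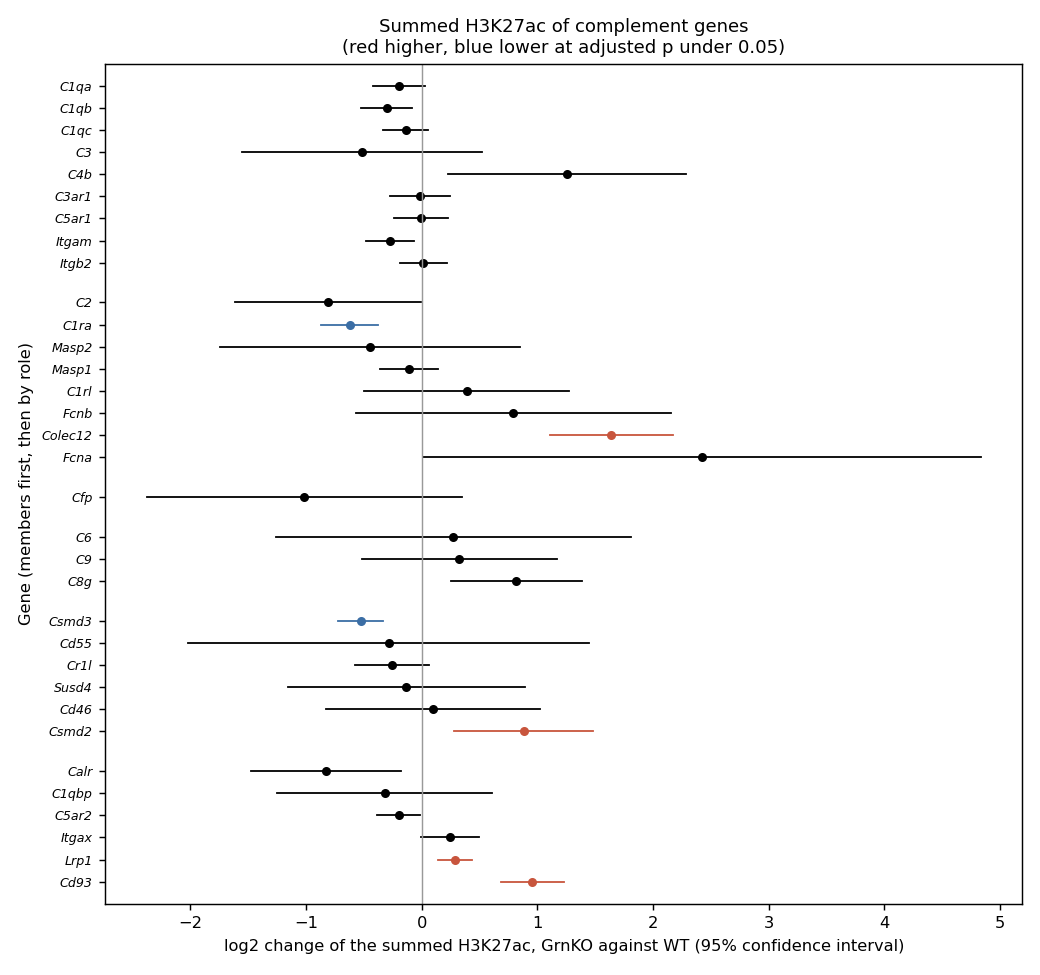
The log2 change of the H3K27ac sum per gene (GrnKO against WT, TMM scaling, limma) with its 95% confidence interval, for the 9 genes at the top and then other tested complement genes by role, soluble regulators left out (red, higher and blue, lower at an adjusted p under 0.05). No interval of the 9 belongs to a called gene, and Cd93, Colec12, Csmd2 and Lrp1 lie above 0 and C1ra and Csmd3 below it at the threshold.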

How the data were processed

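H3K27ac ChIP-seq was measured in 4 libraries of PU.1-sorted brain nuclei (2 pools per genotype) with 4 inputs. Per the file headers, the authors deposited tag coverage (signal) in 800 bp regions set on merged open-chromatin (ATAC-seq) peaks, scaled to 10000000 tags per library. Peak score and distance to the start site (both held as a score) are the authors' deposited values. Bowtie2, HOMER and DESeq2 and the build mm10 are named in the submitters' processing notes. Multiplying by the library total gave whole read ends, within the rounding of the deposited decimals, for 100% of values. These were TMM-scaled (edgeR 4.0.16) and tested in limma 3.58.1 (trend) on log2(value + 1) over all regions passing filterByExpr (minimum 10), with no covariate and Benjamini-Hochberg adjustment at 0.05 in a two-sided test. The p-values rest on the spread between pools. With 2 pools per genotype, limma draws the variance of each region towards a trend over all regions. Gene sums were fitted likewise, and edgeR, DESeq2 1.42.0 (R 4.3.3) and other settings were alternatives. The scripts were tested on simulated data. Named regions are each gene's strongest promoter and distal regions and called distal regions, and other regions were singled out after their values were seen. The genes and lists were chosen with earlier results of these data known. Same-numbered libraries were not treated as pairs. The 3-tag limits cover counting error only. Values of some listed genes are not reported here.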

Additional observations from a re-analysis of the deposited data

How the results depend on the processing

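The count of 4 called regions moved to 12 (3 higher, 9 lower) with the replicate number as a block, to between 0 and 17 when 1 library was left out (0 without GrnKO replicate 1, 1 higher without GrnKO replicate 2, 4 higher and 4 lower without WT replicate 1, 4 higher and 13 lower without WT replicate 2) and to 0 after subtraction of the input, and was 3 to 5 under the authors' scaling, without a filter, with a pseudocount of 5, in edgeR, in DESeq2 and in non-overlapping regions. The 0 called gene sums became 1 under the authors' scaling (C4b), 2 with the block (C1qb and Itgam), 1 in non-overlapping regions (Itgam) and 0 to 2 with 1 library left out (C4b higher and Itgam lower without WT replicate 1, C1qa and C1qb lower without WT replicate 2). The promoter sums gave 0 to 1 and the distal sums 0 to 2 with 1 library left out, and the distal sums 1 under the authors' scaling (C4b) and 1 with the block (C1qb). The ratio gave 0 under every alternative run. At the promoter Itgam was called without WT replicate 1 and C1qb without WT replicate 2. With the block, named C1q regions passed at C1qa 952 bp (adjusted p = 0.0233), C1qb 1128 bp (0.0490) and C1qc 1619 bp (0.0394), as did C4b -17729 bp (0.0278) and the C1qb sum (0.0162). The 4 called single values kept their call in 34 of 48 alternatives and lost it in 14. Values not called gained a call in 27 of 625, and 49 of them changed sign, called in neither. The cause was not tested. The share of all features called under each alternative is not given here. The counts above are therefore not set against the table as a whole, where a change of setting can also move the calls. The labels give no pairing by replicate number. Same-numbered libraries were alike in their Y-linked regions (5.81 and 0 in replicates 1, 269.62 and 220.16 in replicates 2), while their deviations from the group means correlated at 0.034 over 80728 regions. The part of the Y-linked split in the calls gained with the block was not tested. A library left alone in its group is assumed to vary like the other group. Depth limits C3, C4b and 9 untested regions, where 3 tags are worth 1.5 to 1.94 of the authors' tags.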

Other observations

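The surroundings of the called regions were read from all regions within 50 kb of a start site of the 9 genes, whichever gene the table names for them, a window chosen after the region values were seen. Of 135 tested regions 4 were higher and 4 lower in limma, of which 2 higher and 2 lower ones belong to the 9 genes. Over all tested regions 9.71% were called (6.8% higher, 2.92% lower), so the regions named here are described by their values and are no sign that these surroundings stand apart. Beside the region that rose upstream of C3ar1, regions of the next gene, Necap1, also passed the threshold. Of 3 Necap1 regions within 1000 bp of its start, the one 525 bp upstream of that start, and 17875 bp upstream of the C3ar1 start, was called, and those 87 bp upstream and 390 bp downstream were not (adjusted p = 0.270 and 0.425). The called region held 192 and 222 scaled tags in WT and 344 and 279 in GrnKO (log2 change 0.58, adjusted p = 0.0281, limma), and one 15570 bp upstream held 82.1 and 58.1 against 136 and 106 (0.79, adjusted p = 0.0480). Upstream of Itgam, the region at 29838 bp, which the table gives to Trim72, held 84.5 and 52.4 in WT and 26.3 and 27.9 in GrnKO (-1.27, adjusted p = 0.0196). A region of C5ar2, 26977 bp downstream of the C5ar1 start, held 43.4 and 61.5 against 17.8 and 27 (-1.20, adjusted p = 0.0443). In each of these the groups did not overlap.

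Among 1148 genes with a summed level near that of the C1q genes, the patterns over the 4 libraries most like the mean of C1qa, C1qb and C1qc were those of Mtmr6, Apip and Ptger2, with root-mean-square differences of centred log2 sums of 0.0130, 0.0312 and 0.0325. Mtmr6 summed to 1494 and 1256 scaled tags in WT and 1178 and 1229 in GrnKO, so that WT replicate 1 was the highest library there too.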
